A study of Mus musculus with 20 samples.

Results

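The 8 lines of mouse gastric organoids in the series were divided by their level of Tff2, the gene of trefoil factor 2, a small peptide that mucous neck cells of the stomach secrete with their mucin. Counts of each line's libraries were summed, and a line was called Tff2-high where Tff2 exceeded 500 CPM, the count scaled to a common line total. The lines were thus chosen by Tff2 alone. By this rule 4 of 8 lines were Tff2-high (300, 650, 752 and 794) and 4 were Tff2-low (1269, 1270, 565 and 801), with 10 of the 20 libraries on each side. Tff2 stood at 1060, 992, 818 and 568 CPM of the total in the Tff2-high lines and at 15.3, 44.8, 209 and 126 CPM in the Tff2-low lines. The lines nearest to the threshold were 794 at 568 CPM inside it and 565 at 209 CPM outside it. Tff2 itself is therefore no result, and it was left out of every count below.

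Organoids are epithelial cultures grown as small hollow bodies in a gel, here in conditioned medium, from mice labelled as strain BL/6. The study examined mRNA with or without p53, the product of Trp53, a transcription factor that restrains division after damage. Among the Tff2-high lines, 300 was wild type (WT) and non-dysplastic, 650 was a knockout (KO) made in vivo and non-dysplastic, 752 was WT and dysplastic, and 794 was a KO made in vivo and dysplastic. Among the Tff2-low lines, 1269 was WT and non-dysplastic, 1270 was a KO made ex vivo and non-dysplastic, 565 was WT and dysplastic, and 801 was a KO made in vivo and dysplastic. Each side thus held 1 line of every combination of genotype and dysplasia, and below the 4 values of each side are always given in this order, so that values in the same place come from the same class. Neither the driver of the in vivo deletion nor the way of the ex vivo one is given in the labels, which also do not say whether lines came from separate animals.

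Mucous neck cells sit midway down the gastric gland, make Muc6 and Tff2, and are related to a metaplastic state called spasmolytic polypeptide-expressing metaplasia (SPEM), in which chief cells take on neck-cell genes. Pit cells line the surface and make Muc5ac, Tff1 and gastrokines, and both cell types build mucins by adding sugar chains in the Golgi. Dividing progenitors lie between them, switch on DNA replication genes in S phase and spindle genes in G2 and M, and their protein Ki-67, from Mki67, is a common stain for cycling cells.

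Line totals ran from 22217126 to 36880593 counts and library totals from 5669521 to 16323270. From here on CPM is scaled by TMM, edgeR's correction for library composition. Trp53 was lower in KO than in WT lines of each side, at 112, 26.9, 122 and 6.92 CPM in the Tff2-high and 161, 4.99, 154 and 22.2 CPM in the Tff2-low lines. The epithelial markers Epcam, Krt8 and Krt18 were abundant in every line, Krt18 for instance at 2558, 2401, 2563 and 2348 CPM in the Tff2-high and 2202, 1607, 2478 and 2356 CPM in the Tff2-low lines. In earlier results of these data 6 libraries stood apart from the others of their lines (300-2, 650-2, 752-3, 794-3, 565-3 and 801-3), and every Tff2-high line holds one, against 2 of 4 Tff2-low lines. List medians are therefore also given without these libraries, and separated genes that overlapped without them are named as such. Xist was at 0.572, 0.651, 533 and 664 CPM in the Tff2-high and 450.0, 668, 467 and 317 CPM in the Tff2-low lines, while the Y-linked Ddx3y was at 44.8 and 23.6 CPM in lines 300 and 650 and at 0.08 CPM or less in the other 6, so both lines of the male pattern were Tff2-high. The part of sex, of the libraries that stand apart and of the ex vivo deletion in line 1270 in the differences below was not tested.

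Because the lines were sorted by a transcript of the same libraries, differences between the sides are given as a description, with no p for any gene or list. For each gene the values of the 4 lines on each side are followed by the log2 fold change, Tff2-high minus Tff2-low, from a model with 1 mean per class, ± its standard error (SE) on 3 residual degrees of freedom. A gene is called separated where all 4 Tff2-high lines lie above, or all 4 below, all 4 Tff2-low lines. Of 13475 genes tested besides Tff2, 1305 (9.68%) were separated and higher and 1131 (8.39%) separated and lower in Tff2-high lines, and the median log2 fold change was 0.01. Without the libraries that stand apart, 806 of 13219 genes (6.1%) were separated and higher and 792 (5.99%) separated and lower. Counts of separated genes in the lists below are to be read beside these shares. In these bulk libraries fewer cells of a type and less RNA per cell cannot be told apart.

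Genes of DNA replication were lower in the Tff2-high lines throughout. All 32 genes of the S phase list had log2 fold changes below 0, from -1.10 to -0.05 around a median of -0.70, and 22 of 32 were separated and lower, beside the 8.39% of all genes. The list's score, the mean of log2(CPM + 1) over its genes, averaged 5.50 ± 0.27 in Tff2-high lines and 6.11 ± 0.21 in Tff2-low lines (SD, n = 4 each). It was lower in the Tff2-high line of all 4 class pairs. Single libraries overlapped, since the score was 5.58 in 1270-1 of a Tff2-low line but 5.85 in 794-1 of a Tff2-high line. Libraries of 1 line also differed, at 5.58 in 1270-1 against 6.45 in 1270-2 and 4.86 in 650-1 against 5.48 in 650-2. Without the 6 libraries that stand apart the median stayed at -0.70, with 24 of 32 separated and lower, beside the 5.99% of all genes in that analysis.

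Clspn, whose product claspin relays the replication checkpoint, showed the largest difference of the list, at 31.1, 16.3, 21.0 and 24.4 CPM in Tff2-high lines and 68.8, 52.8, 38.7 and 39.1 CPM in Tff2-low lines (log2 fold change -1.10 ± 0.18). Exo1, a DNA exonuclease of repair, was at 21.1, 10.8, 15.0 and 21.2 CPM in Tff2-high and 39.4, 31.6, 26.4 and 29.6 CPM in Tff2-low lines (-0.93 ± 0.19). Pola1, the catalytic subunit of DNA polymerase alpha, was at 30.5, 20.7, 32.6 and 31.1 CPM in Tff2-high and 59.0, 50.5, 43.9 and 51.1 CPM in Tff2-low lines (-0.84 ± 0.15). In these genes line 650, the non-dysplastic KO, was the lowest of all 8 lines. Cdc6, which loads the replicative helicase on origins, was at 28.4, 21.3, 23.3 and 29.3 CPM in Tff2-high and 58.9, 43.6, 40.1 and 40.0 CPM in Tff2-low lines (-0.83 ± 0.13). Of that helicase, Mcm2 was at 108, 62.9, 85.3 and 100.1 CPM in Tff2-high and 178, 151, 133 and 139 CPM in Tff2-low lines (-0.77 ± 0.14), and Mcm3, Mcm4, Mcm6 and Mcm7 were separated as well. Mcm5 was at 149, 76.1, 114 and 106 CPM in Tff2-high and 233, 215, 173 and 130.2 CPM in Tff2-low lines, so the sides overlapped in this subunit because line 300 exceeded line 801. The smallest separated difference of the list was that of Pcna, the sliding clamp of DNA polymerases, at 146, 99.8, 114 and 136 CPM in Tff2-high and 186, 161, 149.8 and 147 CPM in Tff2-low lines (-0.38 ± 0.11).

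The genes of G2 and mitosis were lower in most Tff2-high lines, with the dysplastic KO pair as an exception. The log2 fold change was negative in 31 of 32 genes, the median was -0.52 (-0.60 without the libraries that stand apart), and 10 were separated and lower (11 without those libraries). In the dysplastic pairs alone the median was -0.13. It was -0.87 in the non-dysplastic pairs alone, which hold both lines of the male pattern. The score averaged 6.18 ± 0.33 in Tff2-high and 6.68 ± 0.27 in Tff2-low lines (SD, n = 4 each), but in the dysplastic KO pair it was 6.59 in line 794 and 6.51 in line 801. Mki67 was at 305, 200.1, 273 and 287 CPM in Tff2-high and 655, 484, 355 and 336 CPM in Tff2-low lines (-0.75 ± 0.21). The sides did not overlap with all libraries, but without those that stand apart they did, with a log2 fold change of -0.60. Ttk, a kinase of the spindle checkpoint, was at 24.7, 15.7, 19.5 and 24.2 CPM in Tff2-high and 46.3, 39.2, 29.4 and 31.3 CPM in Tff2-low lines (-0.79 ± 0.17). Bub1b, which delays anaphase until chromosomes are attached, was at 70.2, 52.7, 72.5 and 88.1 CPM in Tff2-high and 133, 134, 93.1 and 107 CPM in Tff2-low lines (-0.72 ± 0.20). Both remained separated without the libraries that stand apart. Ckap2, a spindle protein, was at 40.0, 24.8, 38.3 and 43.0 CPM in Tff2-high and 103, 45.8, 53.4 and 47.1 CPM in Tff2-low lines (-0.72 ± 0.21). Top2a, the topoisomerase that untangles chromosomes, overlapped narrowly, at 302, 215, 263 and 412 CPM in Tff2-high and 625, 495, 389 and 422 CPM in Tff2-low lines (-0.71 ± 0.21). Cdk1, the mitotic kinase, was higher in line 794 than in every Tff2-low line but 1269, at 161, 119, 124 and 231 CPM in Tff2-high and 239.5, 171, 169 and 184 CPM in Tff2-low lines (-0.31 ± 0.17). The single member with a positive log2 fold change was Cenpa, the histone of centromeres, at 0.05 ± 0.19.

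Among cyclins, their kinases and the transcription factors of the cycle, all 20 log2 fold changes were negative (median -0.47, and -0.39 without the libraries that stand apart), and 7 were separated (8 without those libraries). E2f7, a repressor in the E2F family, was at 11.7, 8.46, 8.28 and 11.8 CPM in Tff2-high and 27.4, 18.0, 12.8 and 16.7 CPM in Tff2-low lines (-0.86 ± 0.17), and it overlapped without the libraries that stand apart (-0.85). Foxm1, which drives mitotic genes, was at 44.7, 32.1, 38.2 and 57.1 CPM in Tff2-high and 83.3, 79.1, 61.2 and 64.2 CPM in Tff2-low lines (-0.76 ± 0.19). Mybl2, its partner factor, was at 31.4, 17.8, 22.1 and 35.4 CPM in Tff2-high and 52.0, 45.7, 38.5 and 36.6 CPM in Tff2-low lines (-0.73 ± 0.21). Foxm1 and Mybl2 had their lowest value in line 650, and in both the highest Tff2-high value was that of line 794. E2f1, an activator of S phase genes, gave -0.64 ± 0.17 and was separated too. Ccnd1, the cyclin that answers growth factors, did not follow, at 626, 494, 605 and 836 CPM in Tff2-high and 965, 421, 902 and 673 CPM in Tff2-low lines (-0.16 ± 0.20). Of 12 brakes of the cycle 9 were higher and 3 lower by their log2 fold changes, whose median was 0.22 with and without the libraries that stand apart, and 0 were separated. Cdkn1b, an inhibitor of cyclin-dependent kinases, was higher in the Tff2-high line of all 4 pairs, at 62.4, 74.5, 65.1 and 84.7 CPM in Tff2-high and 41.9, 65.0, 53.3 and 63.4 CPM in Tff2-low lines (0.37 ± 0.09). Cdkn1a, the p53 target p21, was at 224, 196, 275 and 211 CPM in Tff2-high and 425, 32.1, 287 and 95.8 CPM in Tff2-low lines. On each side both KO lines lay below both WT lines, within 196 to 275 CPM in the Tff2-high and 32.1 to 425 CPM in the Tff2-low lines.

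The list of Myc targets and ribosome assembly was lower as well. All 26 genes had negative log2 fold changes (median -0.42, and -0.43 without the libraries that stand apart), and 15 were separated with all libraries and 12 without those. The score averaged 6.37 ± 0.14 in Tff2-high and 6.78 ± 0.07 in Tff2-low lines (SD, n = 4 each), and the 2 sides did not overlap. Nolc1, a nucleolar chaperone, was at 126, 87.0, 104 and 110.3 CPM in Tff2-high and 183, 158, 154 and 149.6 CPM in Tff2-low lines (-0.60 ± 0.10). Polr1b, a subunit of RNA polymerase I, was at 48.7, 35.4, 39.9 and 34.5 CPM in Tff2-high and 64.9, 63.5, 56.7 and 51.5 CPM in Tff2-low lines (-0.58 ± 0.10). Cad, the enzyme that starts pyrimidine synthesis, was at 87.1, 51.5, 63.3 and 83.2 CPM in Tff2-high and 149, 138, 109 and 95.5 CPM in Tff2-low lines (-0.80 ± 0.20). With all libraries the lowest Tff2-low line lay above the highest Tff2-high line in all of these. Rrp12, a factor of ribosome export, gave -0.61 ± 0.11. Without the libraries that stand apart Nolc1 stayed separated, while Polr1b (-0.55), Cad (-0.70) and Rrp12 (-0.50) overlapped. Myc itself was lower in the Tff2-high line of each pair but overlapped, at 100.5, 95.0, 92.7 and 134 CPM in Tff2-high and 168, 104, 134 and 149 CPM in Tff2-low lines (-0.39 ± 0.13).

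**Figure D1:**
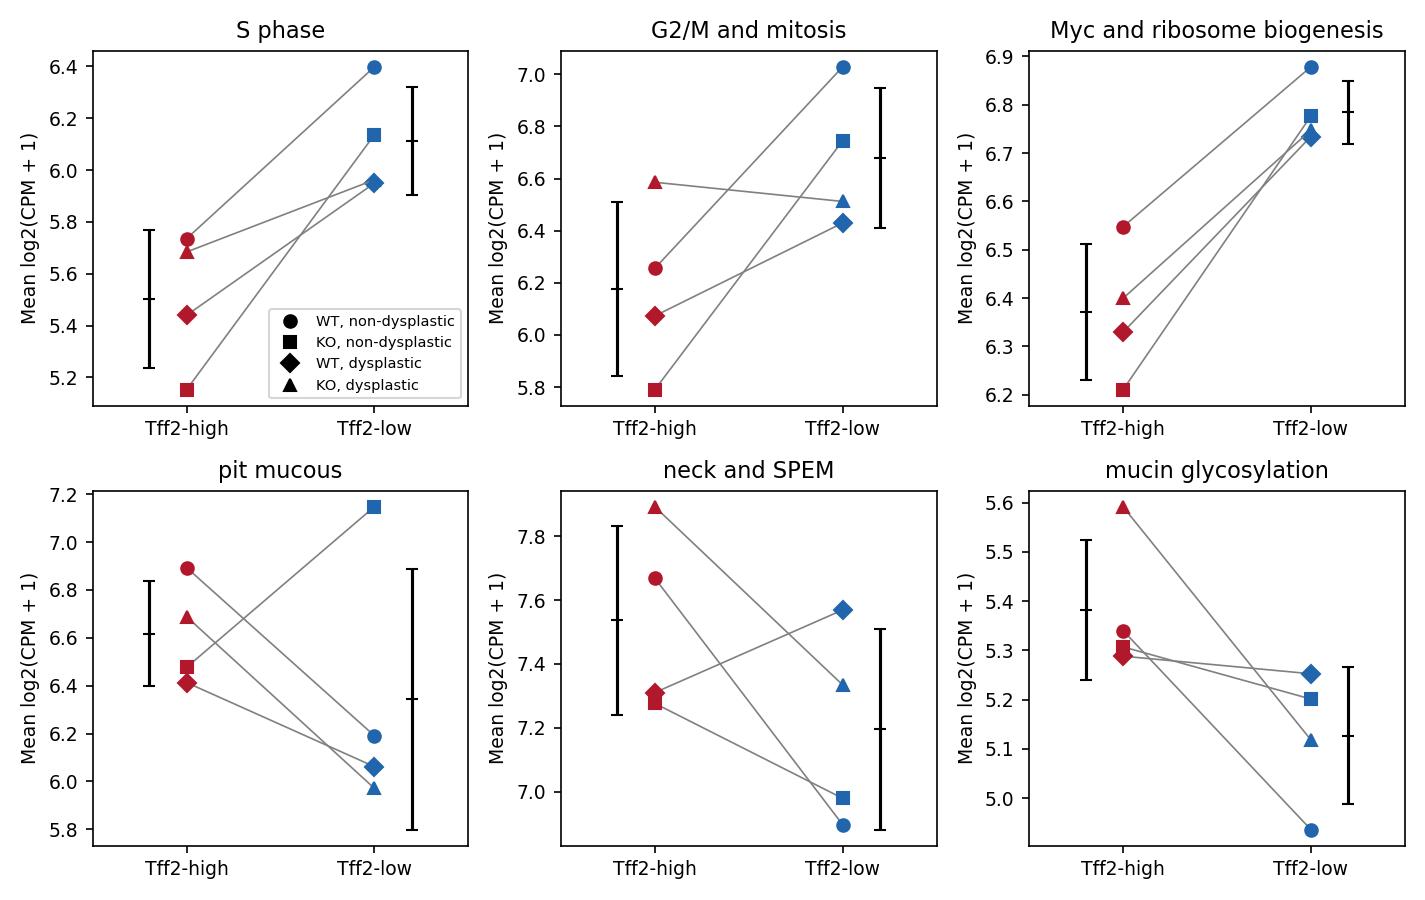
Scores of 6 gene lists, each the mean of log2(CPM + 1) over the list's genes, in the 4 Tff2-high lines (left) and 4 Tff2-low lines (right); lines of the same genotype and dysplasia are joined, and the mean ± SD of each side is drawn. The S phase and ribosome scores were lower in the Tff2-high line of every pair, while the G2 and mitosis score was 6.59 in line 794 and 6.51 in line 801.

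The regions upstream of 3 of the lower genes are shown because replication and mitotic genes are known for short shared promoter elements. S phase genes often carry sites for E2F factors, searched here as TTCCCGC or TTGGCGC, and mitotic genes a cell cycle homology region, searched as TTTGAA. Both strands were searched over the 250 bases before the start of the gene in RefSeq's table for GRCm38.p6. Neither form can overlap TTTGAA, while CCAAT, also searched, can share letters with TTGGCGC. The letters were settled after promoters of some of these genes had been read, and the genes shown were picked with their matches known. An E2F match was found in 12 of 26 S phase promoters in the table (46.2%), in 3 of 28 G2 and mitosis promoters (10.7%) and in 5.71% of all 27025 promoters. With 1 more T in front, as first planned, the matches were 6 of 26 (23.1%), 0 of 28 and 1.35% of all. The TTTGAA letters were found in 4 of 26 S phase promoters (15.4%), 9 of 28 G2 and mitosis promoters (32.1%) and 16.3% of all. The letters CCAAT were in 73.1% of the S phase and 75.0% of the G2 and mitosis promoters, beside 34.5% of all. Pit cell (14 in the table) and neck cell promoters (11) held no E2F match. Mucin sugar promoters held one in 2 of 20, and promoters of Myc targets and ribosome assembly in 5 of 20. With 1 more T in front these were 0 of 20 and 4 of 20. TTTGAA was found in 3 of 14 pit cell, 0 of 11 neck cell, 0 of 20 mucin sugar and 2 of 20 ribosome assembly promoters. Clspn held no E2F match, and Bub1b and Ttk no TTTGAA match, in these windows. A match is a description of letters and no measured binding site. Pola1 (chrX:93632156-93632405, minus strand, 3 E2F matches), Cdc6 (chr11:98907901-98908150, plus strand, 1 E2F match) and Mki67 (chr7:135716380-135716629, minus strand, 2 TTTGAA matches and 1 E2F match) read as follows, 5′ to 3′ and ending 1 base before the start, with the E2F letters and TTTGAA, on either strand, in capitals. The Mki67 window thus holds both kinds, with its E2F match, TTGGCGC, nearer to the start.
Pola1: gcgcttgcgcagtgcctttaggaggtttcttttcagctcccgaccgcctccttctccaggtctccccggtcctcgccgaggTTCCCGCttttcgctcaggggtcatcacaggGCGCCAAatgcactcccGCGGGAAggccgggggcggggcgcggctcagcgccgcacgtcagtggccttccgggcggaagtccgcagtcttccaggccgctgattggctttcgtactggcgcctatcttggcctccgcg
Cdc6: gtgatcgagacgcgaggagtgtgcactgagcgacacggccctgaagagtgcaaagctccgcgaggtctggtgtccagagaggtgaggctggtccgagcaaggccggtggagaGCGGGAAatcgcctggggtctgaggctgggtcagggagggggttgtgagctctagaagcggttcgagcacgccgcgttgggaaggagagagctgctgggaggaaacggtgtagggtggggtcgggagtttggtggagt
Mki67: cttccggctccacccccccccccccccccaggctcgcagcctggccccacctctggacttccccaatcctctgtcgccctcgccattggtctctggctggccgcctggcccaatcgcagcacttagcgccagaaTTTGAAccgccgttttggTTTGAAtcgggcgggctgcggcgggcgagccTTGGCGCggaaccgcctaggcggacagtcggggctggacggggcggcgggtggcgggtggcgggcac

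Mucous genes did not form a single block. Of the 19 genes of the neck cell and SPEM list tested besides Tff2, 12 had positive and 7 negative log2 fold changes. The median was 0.10 (0.16 without the libraries that stand apart), and 2 were separated and higher, beside 9.68% of all genes. The score averaged 7.54 ± 0.30 in Tff2-high and 7.19 ± 0.31 in Tff2-low lines (SD, n = 4 each), and the median difference in the WT dysplastic pair went the other way, at -0.40. Spink4, a small secreted protease inhibitor of mucous cells, was at 107, 82.2, 63.1 and 206 CPM in Tff2-high and 4.73, 21.4, 24.1 and 29.9 CPM in Tff2-low lines (2.59 ± 0.55). The lowest Tff2-high line, 752, stood above the highest Tff2-low line, 801. Within lines Spink4 was higher in the library that stands apart in 6 of 6 lines, by a median of 2.10 on the log2 scale. It stayed separated without those libraries. Wfdc2, a secreted whey acidic protein seen in SPEM, was at 1116, 1012, 969 and 2424 CPM in Tff2-high and 716, 465, 840.3 and 923 CPM in Tff2-low lines (0.84 ± 0.21). Line 794 was far above the rest, and without the libraries that stand apart the sides overlapped (0.44).

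The defining neck cell markers overlapped between the sides. Muc6, the gland mucin, was at 142, 67.2, 83.1 and 259 CPM in Tff2-high and 98.1, 80.0, 172 and 139 CPM in Tff2-low lines (0.04 ± 0.34). Gkn3, the gastrokine of neck cells, was at 3060.4, 1866, 1729 and 3292 CPM in Tff2-high and 439.7, 1025, 2469 and 1713 CPM in Tff2-low lines (1.00 ± 0.55). Glipr1 was at 136, 169, 164 and 19.8 CPM in Tff2-high and 304, 54.9, 198 and 144 CPM in Tff2-low lines (-0.67 ± 0.77). Only for Gkn3 was the difference positive in most pairs (3 of 4), while for Muc6 it was positive in 2 and for Glipr1 in 1. Dmbt1, a secreted mucosal scavenger protein, was higher in the Tff2-high line of all 4 pairs, at 1802, 2219, 1823 and 1229.9 CPM in Tff2-high and 201, 1468, 783 and 596 CPM in Tff2-low lines (1.47 ± 0.45). Olfm4, a secreted glycoprotein of some stem and metaplastic cells, was at 1.00, 0.173, 0.192 and 160.1 CPM in Tff2-high and 0.04, 0.227, 0.755 and 0.228 CPM in Tff2-low lines, so that it was abundant in line 794 alone. Aqp5, a water channel, was at 181, 70.5, 109.7 and 769.5 CPM in Tff2-high and 164, 120.0, 315 and 159 CPM in Tff2-low lines, again with line 794 as the highest.

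Of 22 pit cell genes, 17 had log2 fold changes above 0 and 5 below, around a median of 0.47 (0.35 without the libraries that stand apart). Of these 22 genes 3 were separated and higher, beside 9.68% of all genes. The score averaged 6.62 ± 0.22 in Tff2-high and 6.34 ± 0.54 in Tff2-low lines (SD, n = 4 each), yet the highest score of all, 7.15, was that of the Tff2-low line 1270. That line's score rested on a single library, since it was 8.02 in 1270-1 and 6.10 in 1270-2. Of these, 1270-1 also had more Tff2, at 88.2 against 10.9 CPM of the library total. The surface mucin Muc5ac was at 8.16, 1.86, 5.29 and 461 CPM in Tff2-high and 8.54, 185, 2.5 and 1.63 CPM in Tff2-low lines. Gkn1, a gastrokine of the surface, was at 159.8, 22.4, 35.6 and 3759.8 CPM in Tff2-high and 59.8, 463, 67.2 and 43.8 CPM in Tff2-low lines. Gkn2 was at 72.7, 15.0, 23.3 and 389.9 CPM in Tff2-high and 28.0, 417, 12.5 and 10.5 CPM in Tff2-low lines. These surface genes were thus highest in lines 794 and 1270, both KO, of which 1 was Tff2-high and 1 Tff2-low. Tff1, the trefoil factor of pit cells, was below 0.5 CPM in every line. Lgals2, a sugar-binding galectin, was separated, at 53.1, 29.0, 36.6 and 26.0 CPM in Tff2-high and 8.90, 18.5, 9.38 and 14.5 CPM in Tff2-low lines (1.50 ± 0.36), but overlapped without the libraries that stand apart. Phgr1 was at 136, 125, 88.6 and 158 CPM in Tff2-high and 55.0, 34.9, 68.4 and 52.8 CPM in Tff2-low lines (1.28 ± 0.25). Tspan8, a membrane tetraspanin, was at 1061, 992, 976 and 1197 CPM in Tff2-high and 712, 598, 741 and 618 CPM in Tff2-low lines (0.66 ± 0.12). Phgr1 and Tspan8 kept their separation without those libraries.

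Enzymes that build mucin sugar chains were mostly higher. Of 30 such genes 23 had positive values, and the median was 0.16 (0.29 without the libraries that stand apart). With all libraries 5 of 30 were separated and higher, beside 9.68% of all genes. Without those libraries 7 were separated and higher and 1 lower, B3gnt5, at under 1.5 CPM in every line, with a log2 fold change of -1.53. The median difference was 0.46, -0.01, 0.10 and 0.42 in the dysplastic KO, non-dysplastic KO, dysplastic WT and non-dysplastic WT pairs, so the non-dysplastic KO pair did not show it. The score averaged 5.38 ± 0.14 in Tff2-high and 5.13 ± 0.14 in Tff2-low lines (SD, n = 4 each). B4galnt3, which adds N-acetylgalactosamine to make the LacdiNAc structure, was at 22.2, 19.0, 13.1 and 19.2 CPM in Tff2-high and 5.84, 8.71, 9.96 and 5.61 CPM in Tff2-low lines (1.30 ± 0.28). Galnt6, which starts O-linked chains, was at 118, 131, 163 and 139 CPM in Tff2-high and 33.2, 48.0, 111 and 96.8 CPM in Tff2-low lines (1.08 ± 0.26). Gcnt3, the mucin-type core branching enzyme, was at 577, 551, 497 and 709 CPM in Tff2-high and 273, 183, 423 and 284 CPM in Tff2-low lines (1.06 ± 0.23). In Galnt6 the non-dysplastic pairs differed more than the dysplastic ones, by 1.43 and 1.80 against 0.51 and 0.55 on the log2 scale. Galnt7 and C1galt1c1, the chaperone of the core enzyme, were separated with smaller values of 0.69 ± 0.25 and 0.39 ± 0.11.

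Of 22 genes of mucous secretion, 18 had positive values with a median of 0.40 (0.35 without the libraries that stand apart). Of these 22 genes 1 was separated and higher, beside 9.68% of all genes (2 higher and 1 lower without those libraries). Sec61b, part of the channel into the endoplasmic reticulum, was at 159, 134, 124 and 138 CPM in Tff2-high and 78.8, 97.8, 113 and 97.9 CPM in Tff2-low lines (0.53 ± 0.15). Within lines it was higher in the library that stands apart in 6 of 6 lines, by a median of 0.91 on the log2 scale. Agr2, a disulfide isomerase that mucins need for folding, was at 896, 506, 505 and 1819.8 CPM in Tff2-high and 93.0, 219, 597 and 298 CPM in Tff2-low lines (1.74 ± 0.65), with the WT dysplastic line 565 above 2 of the Tff2-high lines. Spdef, a transcription factor of mucous cells, was at 105, 62.6, 75.6 and 161 CPM in Tff2-high and 41.3, 98.4, 93.2 and 70.0 CPM in Tff2-low lines (0.40 ± 0.41). In the list of the unfolded protein and integrated stress responses 3 of 19 genes were separated and higher (Herpud1, Atf4 and Vldlr), beside 9.68% of all genes. Of the 3, Atf4 overlapped without the libraries that stand apart. The list's median of 0.28 was 0.07 without those libraries, and it was -0.06 without line 794 and -0.06 without line 801, since leaving out either line removes the dysplastic KO pair. Herpud1, which acts in the degradation of misfolded proteins, was at 195, 201, 201 and 206 CPM in Tff2-high and 161, 172, 164 and 166 CPM in Tff2-low lines (0.28 ± 0.07).

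**Figure D2:**
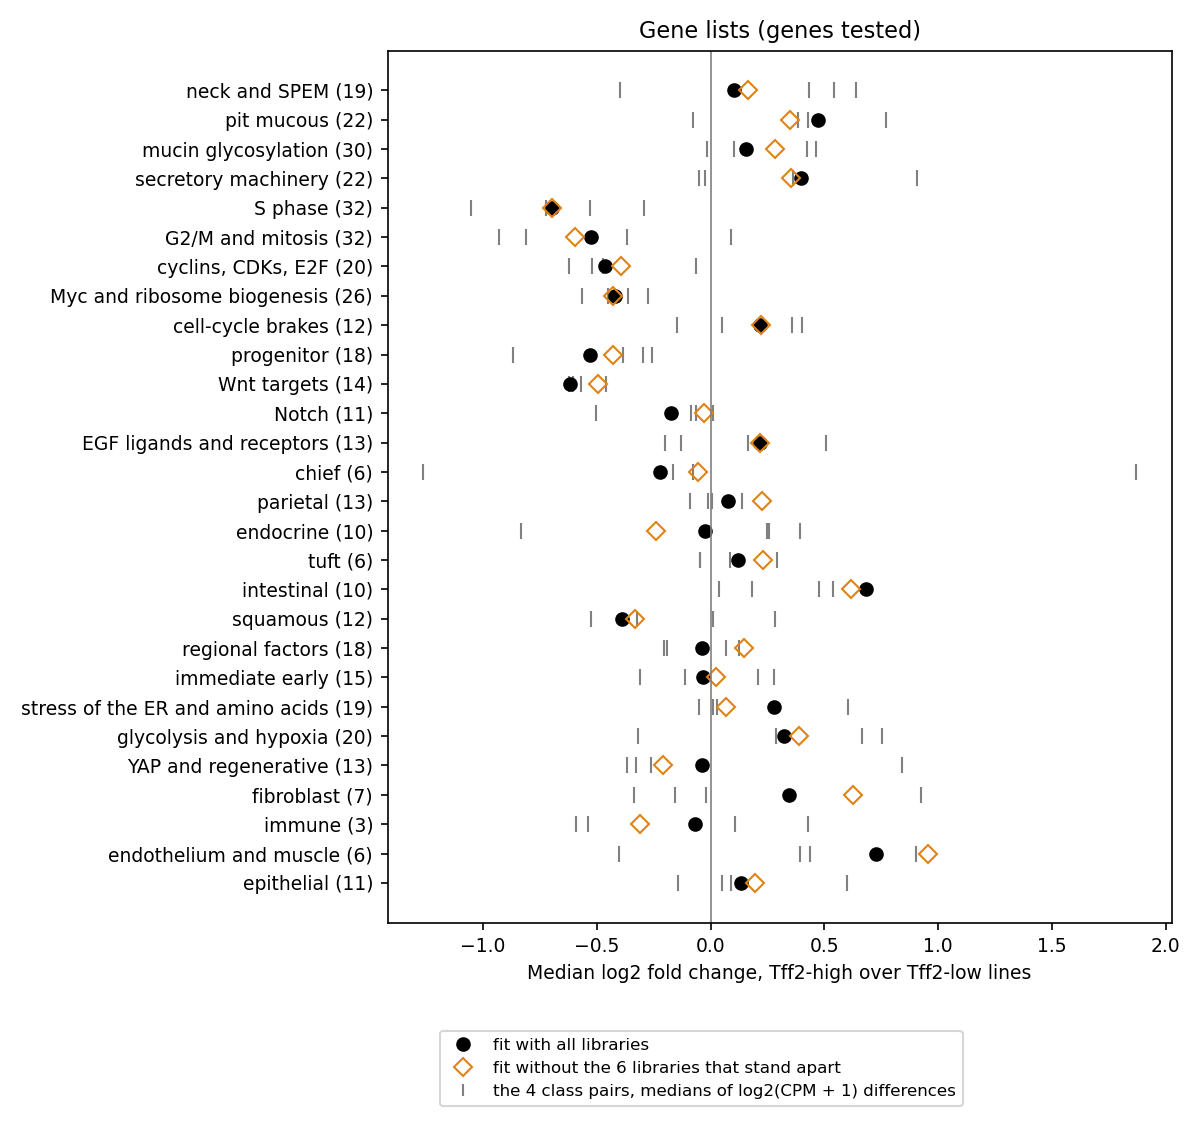
Median log2 fold change, Tff2-high minus Tff2-low, of the 28 gene lists, with all libraries (dots), without the 6 libraries that stand apart (diamonds) and in each of the 4 class pairs (ticks). S phase lies lowest of the cell cycle lists at -0.70, and the neck cell list lies near 0 at 0.10.

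Single libraries of a line also differed in Tff2 and Mki67. In 6 of 6 lines with a library that stands apart, this library had the line's highest Tff2 (median 1.15 above the others on the log2 scale, range 0.53 to 2.33) and its lowest Mki67 (median -0.98, range -1.73 to -0.52). Its S phase score differed from the others by a median of -0.05 (range -0.17 to 0.62) and its ribosome score by -0.03 (range -0.14 to 0.30). The neck cell score was highest in that library in 5 of 6 lines (median difference 0.16) and the mucin sugar score lowest in 5 of 6 (median difference -0.18). Line 794 owed its place above 500 CPM to such a library, since its libraries held 225, 367 and 1320 CPM of Tff2 on their totals. Without the libraries that stand apart the Tff2-high lines had 673, 808, 563 and 294 CPM and the Tff2-low lines 15.3, 44.8, 184 and 107 CPM, so line 794 was below the threshold but above all 4 Tff2-low lines. With line 794 counted as Tff2-low on that basis, the dysplastic KO class has no Tff2-high line left, so the log2 fold changes rest on the other 3 class pairs. Line 794 is then not measured as a Tff2-low line. Over those pairs the S phase median was -0.81, the pit cell median 0.41 and the neck cell median -0.03. In the lines without such a library, 1269-1 had more Tff2 (21.1 against 8.89 CPM) and more Mki67 (815 against 466 CPM) than 1269-2, while 1270-1 had more Tff2 (88.2 against 10.9 CPM) and less Mki67 (394 against 550.0 CPM) than 1270-2.

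**Figure D3:**
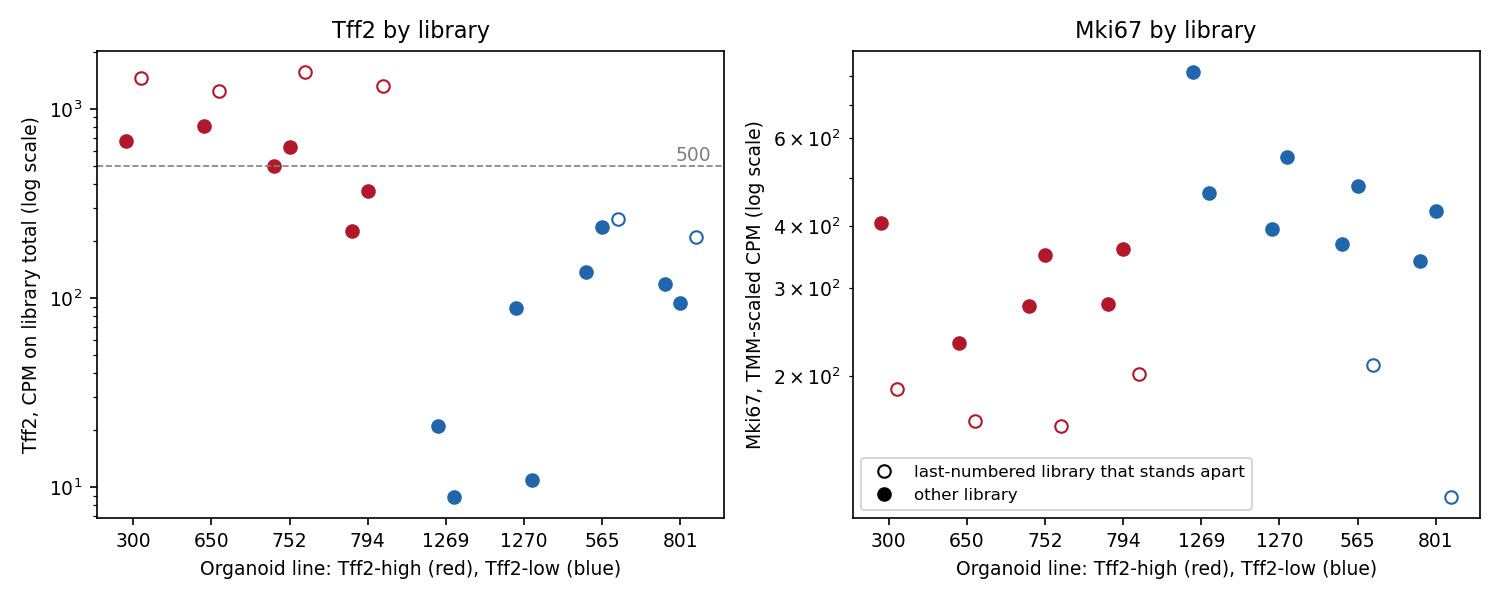
Tff2 (CPM of the library total) and Mki67 (TMM-scaled CPM) in each of the 20 libraries on log axes, by line, with Tff2-high lines left of Tff2-low lines, open symbols for the 6 libraries that stand apart and a dashed line at 500 CPM. In each of the 6 lines with an open symbol that library has the highest Tff2 and the lowest Mki67 of its line.

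Differences also ran with transcript length, taken as the longest protein-coding transcript of each symbol in GENCODE vM21. In the shortest 20% of genes, of 61 to 1737 bases, the median log2 fold change was 0.25, and in the longest 20%, of 5058 bases and more, it was -0.13. Without the libraries that stand apart these medians were 0.07 and -0.02, and within lines those libraries exceeded the others by 0.52 in the shortest genes and by -0.39 in the longest. Of the shortest genes 24.1% were separated and higher and 1.27% separated and lower, while of the longest genes 1.72% were separated and higher and 15.8% separated and lower. Tff2, at 584 bases, and Mki67, at 10061 bases, lie in these outer groups. The S phase list had a median length of 3369.5 bases, beside 3069 for all genes tested, and its median was -0.67 after centring on genes of similar length. The pit cell list had a median length of 1804.5 bases, and its median was 0.28 after the same centring, beside 0.47 without it. The mucous secretion median was 0.18 after centring, beside 0.40 without it, and Sec61b, at 564 bases, was at 0.13, beside 0.53. The mucin sugar median was 0.18, beside 0.16, and the neck cell median 0.16, beside 0.10. Mki67 was at -0.56 and Spink4 at 2.19 after centring.

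**Figure D4:**
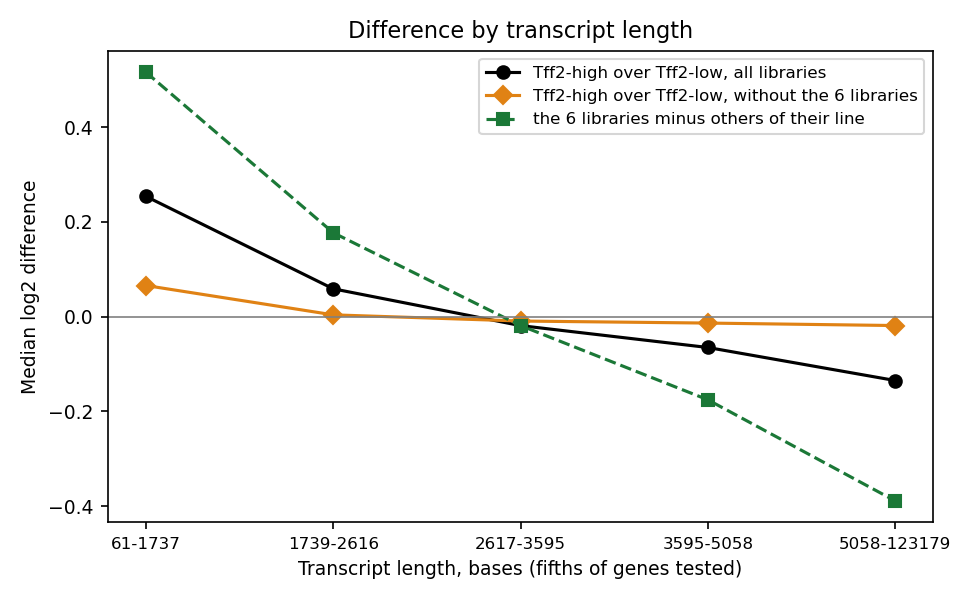
Median log2 fold change of genes in 5 equal groups of transcript length, shortest to longest, for Tff2-high minus Tff2-low lines with all libraries and without the 6 libraries that stand apart, and for those libraries minus the others of their lines. With all libraries the medians run from 0.25 to -0.13, and without those libraries from 0.07 to -0.02.

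Of all genes tested besides Tff2, 132 (0.98%) were separated with a log2 fold change of 1 or more, and 34 (0.252%) were separated with one of -1 or less. The 12 with the largest values in each direction, among genes with an average log2 CPM above 2 that stayed separated without the libraries that stand apart, were as follows. Sult1d1, a cytosolic sulfotransferase, was at 162, 244, 160.0 and 176 CPM in Tff2-high and 13.0, 34.7, 53.7 and 37.4 CPM in Tff2-low lines (2.55 ± 0.36). Otop3, of the otopetrin family of proton channels, was at 77.0, 110.1, 79.9 and 92.8 CPM in Tff2-high and 4.01, 3.27, 55.3 and 43.1 CPM in Tff2-low lines (2.64 ± 0.99), and its low values were those of the non-dysplastic Tff2-low lines. Cbr2, a carbonyl reductase, was at 11.1, 26.7, 21.0 and 49.0 CPM in Tff2-high and 2.74, 7.12, 5.37 and 9.17 CPM in Tff2-low lines (2.08 ± 0.14). Its SE was the smallest of the 12, and the 4 pairs differed by 1.69 to 2.30 on the log2 scale. The others were Spink4 as above, the carboxylesterase Ces1f, the transcription factor Tcf23, the mast cell protease Mcpt2, the class I antigen gene H2-Q10, the ligand Tnfsf13, the guanylate cyclase activator Guca1a, Dmkn and Gm3336, with log2 fold changes of 1.66 to 2.66. H2-Q10, Mcpt2 and Ces1f have close copies in the genome, so their counts are uncertain.

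Among the lower genes, Robo1, a receptor for Slit guidance proteins, was at 9.78, 20.2, 23.2 and 14.1 CPM in Tff2-high and 44.0, 53.0, 31.5 and 50.4 CPM in Tff2-low lines (-1.46 ± 0.29). Anpep, a surface aminopeptidase, was at 28.8, 17.6, 38.7 and 4.73 CPM in Tff2-high and 50.1, 120.2, 50.5 and 39.8 CPM in Tff2-low lines (-1.74 ± 0.56). Tiam1, an activator of the GTPase Rac, was at 12.4, 9.41, 15.1 and 12.4 CPM in Tff2-high and 36.4, 30.5, 22.2 and 22.7 CPM in Tff2-low lines (-1.17 ± 0.22). Line 794 was the lowest for Anpep and line 300 for Robo1. Cyp1b1, a cytochrome P450, was at 209, 139, 176 and 184 CPM in Tff2-high and 774, 312, 299.7 and 262 CPM in Tff2-low lines (-1.08 ± 0.24), with line 1269 well above the rest. Myb, a transcription factor of progenitors, was at 4.01, 2.21, 4.39 and 1.12 CPM in Tff2-high and 9.94, 18.7, 4.94 and 4.76 CPM in Tff2-low lines (-1.65 ± 0.51). The others were Peg3, Sbspon, Arnt2, Dmpk, Kif26b, Sox5 and, as above, Clspn, with log2 fold changes of -2.03 to -1.10. Transcripts of the 12 higher genes were 397 to 4116 bases long and those of the 12 lower genes 2748 to 13749 bases.

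**Figure D5:**
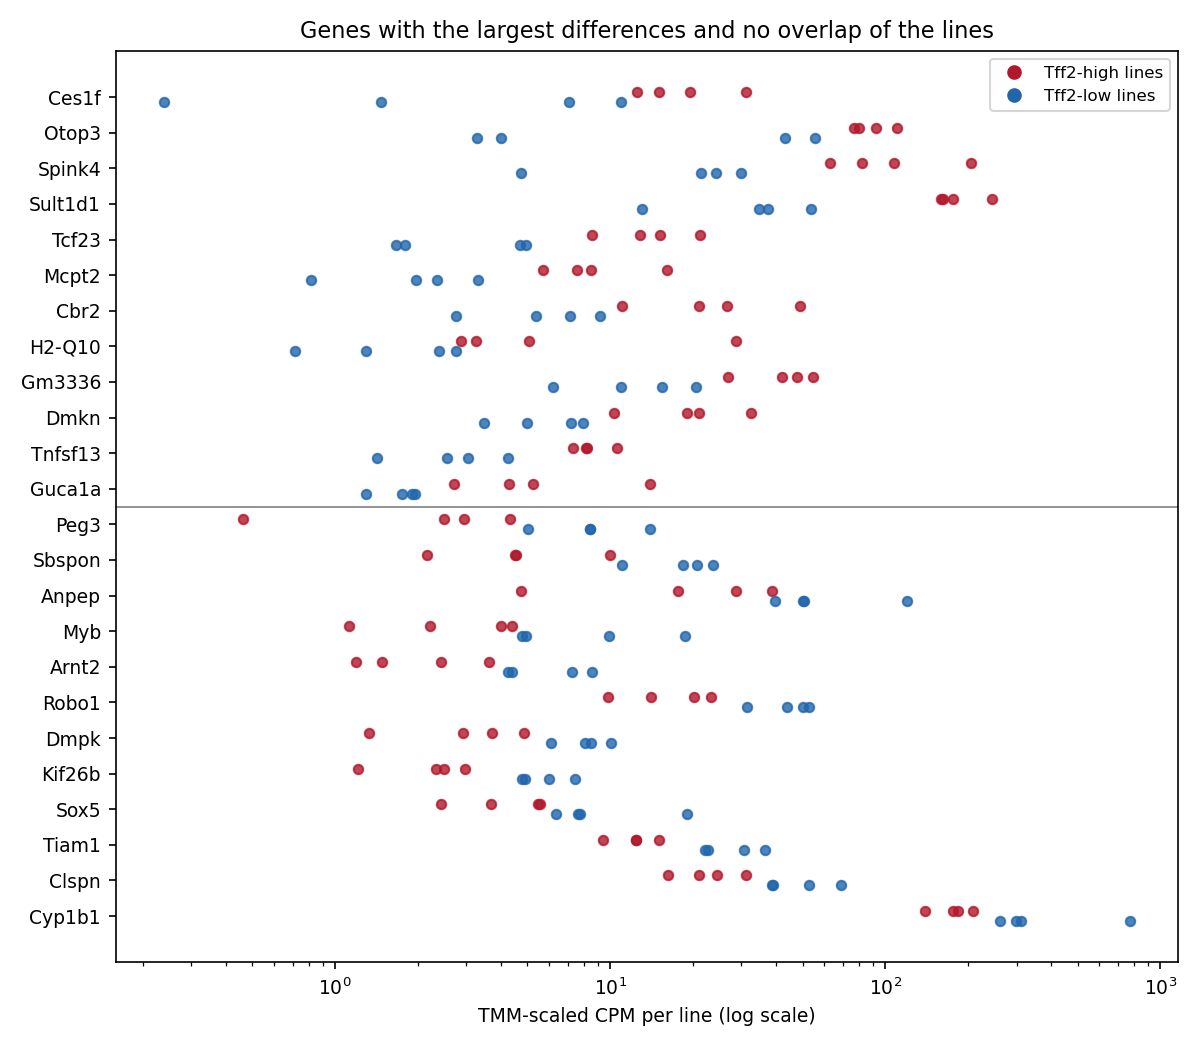
TMM-scaled CPM of the 12 genes with the largest and the 12 with the smallest log2 fold change, on a log axis, in each Tff2-high and Tff2-low line. The sides do not overlap in any of the 24, which is how they were chosen.

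Targets of Wnt signalling, which maintains gland progenitors, were mostly lower. Of 14 genes 11 had negative values, and the median was -0.62 (-0.49 without the libraries that stand apart). With all libraries 4 of 14 were separated and lower, beside 8.39% of all genes. Without those libraries only 1 of 14 was, Znrf3, a share near the 5.99% of all genes in that analysis. Axin2, a feedback inhibitor of the pathway, was at 17.2, 5.90, 11.0 and 18.6 CPM in Tff2-high and 50.8, 20.7, 32.3 and 27.7 CPM in Tff2-low lines (-1.37 ± 0.22). Znrf3 and Rnf43, ligases that remove Wnt receptors, gave -0.67 ± 0.13 and -0.66 ± 0.12. Lgr5, a receptor of gland stem cells, was lower in the Tff2-high line of all 4 pairs but overlapped, at 4.91, 1.39, 8.06 and 6.57 CPM in Tff2-high and 15.5, 5.28, 10.9 and 13.6 CPM in Tff2-low lines (-1.25 ± 0.29). Prox1, a transcription factor, was at 0.906, 2.43, 3.78 and 0.029 CPM in Tff2-high and 8.50, 4.02, 6.65 and 11.4 CPM in Tff2-low lines, close to 0 in line 794. In the progenitor list 14 of 18 genes had negative values (median -0.53, and -0.43 without the libraries that stand apart). Of the 18, Axin2, Iqgap3, Stmn1 and Bmi1 were separated and lower, beside 8.39% of all genes. Without those libraries Stmn1 and Bmi1 stayed so, Axin2 (-1.17) and Iqgap3 (-0.71) overlapped, and Runx1 (0.37) and Prom1 (0.56), a transcription factor and a membrane protein, were separated and higher. Bmi1, a Polycomb protein, was at 37.8, 33.4, 40.9 and 35.1 CPM in Tff2-high and 47.3, 59.0, 49.1 and 44.5 CPM in Tff2-low lines (-0.44 ± 0.12).

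All 20 genes of glycolysis and the hypoxia response had positive values (median 0.32, and 0.39 without the libraries that stand apart). Of them only Hk1 was separated and higher (3 genes without those libraries), beside 9.68% of all genes. In the WT non-dysplastic pair the median was -0.32. Hk1, a hexokinase, was at 257, 281, 313 and 313 CPM in Tff2-high and 245, 195, 214 and 192 CPM in Tff2-low lines (0.46 ± 0.12). Medians of the other signalling lists lay nearer to 0, at -0.18 for Notch, 0.22 for EGF ligands and receptors, -0.04 for YAP targets, -0.03 for immediate early genes and -0.04 for regional transcription factors. The EGF receptors Erbb2 and Erbb3 were separated and higher without the libraries that stand apart (0.43 and 0.50) but not with all. In the YAP list 2 of 13 genes were separated and lower, beside 8.39% of all genes (1 without the libraries that stand apart, beside 5.99%). Of these, Tead1, a partner of YAP, was at 59.8, 71.6, 63.4 and 78.7 CPM in Tff2-high and 94.8, 87.2, 86.6 and 94.5 CPM in Tff2-low lines (-0.42 ± 0.10). Among the regional factors, Nkx6-3, a factor of the gastric antrum, was at 131, 125, 128 and 138 CPM in Tff2-high and 0.079, 4.79, 129 and 96.6 CPM in Tff2-low lines. Both non-dysplastic Tff2-low lines, which also had the least Tff2, were near 0 while the dysplastic ones were not, and without the libraries that stand apart Nkx6-3 was separated and higher. Nkx6-2 showed the same, at 35.4, 30.2, 27.5 and 10.5 CPM in Tff2-high and 0.119, 0.421, 27.6 and 15.0 CPM in Tff2-low lines, and Isl1, a homeobox factor of the endocrine list, the reverse, at 2.15, 0.217, 0.165 and 0.894 CPM in Tff2-high and 17.7, 19.8, 0.087 and 0.098 CPM in Tff2-low lines.

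Markers of other cell types overlapped between the sides in most genes. Of 10 intestinal genes 3 were separated and higher with all libraries (Tff3, Fabp2 and Lgals4), beside 9.68% of all genes. Without the libraries that stand apart 0 were separated and higher, and Clca1, at under 2.5 CPM in every line, was separated and lower (-1.62). The median was 0.68 with all libraries and 0.62 without those. Lgals4, a galectin, was at 40.8, 39.5, 32.3 and 29.2 CPM in Tff2-high and 23.8, 23.4, 27.2 and 20.7 CPM in Tff2-low lines (0.57 ± 0.12). The defining factor Cdx2 was at 4.67, 5.94, 9.95 and 25.7 CPM in Tff2-high and 8.66, 0.971, 2.00 and 5.84 CPM in Tff2-low lines, and Cdx1 was at most 0.03 CPM. The medians of the chief, parietal, endocrine, tuft and squamous lists were -0.22, 0.08, -0.02, 0.12 and -0.39 (-0.06, 0.23, -0.24, 0.23 and -0.33 without the libraries that stand apart), with 1 separated gene among them, Syp, at under 1 CPM in every line, which overlapped without those libraries. The chief median turned sign with lines left out, at -1.08 without line 1269 and 0.56 without line 650. The chief cell gene Gif was at 206, 54.1, 33.5 and 2.83 CPM in Tff2-high and 24.5, 609, 40.1 and 37.6 CPM in Tff2-low lines, and the parietal proton pump gene Atp4b was at 0 in all. Summed over the 12 fibroblast genes in the table, Tff2-high lines held 37.6 to 63.5 CPM and Tff2-low lines 43.5 to 65.2 CPM, mostly Fbln1, and Dcn was at most 0.21 CPM. The list's median was 0.35 (0.63 without the libraries that stand apart), while Fbln1, an extracellular matrix protein, was separated and lower with and without those libraries, at 34.2, 26.3, 31.7 and 25.4 CPM in Tff2-high and 55.4, 58.4, 35.3 and 47.4 CPM in Tff2-low lines (-0.72 ± 0.17). Summed over 13 immune genes, Tff2-high lines held 24.9 to 33.2 CPM and Tff2-low lines 9.62 to 52.9 CPM, mostly Cd68, with 5 genes at 0 in every line and Ptprc at most 1.51 CPM. Summed over 10 endothelial and muscle genes, Tff2-high lines held 6.69 to 65.5 CPM and Tff2-low lines 5.21 to 115 CPM. That list's median was 0.73 (0.96 without the libraries that stand apart), and Pecam1, an endothelial adhesion protein, was separated and higher with and without those libraries, at 0.954, 0.694, 0.658 and 0.951 CPM in Tff2-high and 0.159, 0.453, 0.523 and 0.391 CPM in Tff2-low lines (1.12 ± 0.51). The 11 epithelial genes summed to 16567 to 19888 CPM in Tff2-high lines and to 14295 to 18971 CPM in Tff2-low lines, with a median log2 fold change of 0.13. Cdh1, the epithelial cadherin, was separated and lower, at 1649, 1742, 1790.4 and 1408 CPM in Tff2-high and 1821, 1945, 1832 and 1861 CPM in Tff2-low lines (-0.18 ± 0.10), but not without the libraries that stand apart (-0.01).

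Over the 8 lines the level of Gabarap, an autophagy adaptor, was most like that of Tff2, with a Pearson r of 0.995 between values of log2(CPM + 1). It was at 384, 382, 359 and 342 CPM in Tff2-high and 219.7, 249, 297 and 293 CPM in Tff2-low lines. Next came Mfsd3, Sil1, Tcn2, S100a1, Snx10, Tmem50a and Stap2, each at 0.98 or 0.99. Sil1, a helper of the chaperone BiP, was at 69.4, 70.3, 69.9 and 72.8 CPM in Tff2-high and 41.9, 47.9, 57.9 and 53.6 CPM in Tff2-low lines. Among the most opposite were Prrc2a, Brca2, Sec24b, Baz1b, Casp8ap2, Zfp106 and Ylpm1, at -0.99 or -0.98. Brca2, which loads the recombinase at DNA breaks, was at 11.4, 11.1, 12.4 and 11.5 CPM in Tff2-high and 31.0, 22.9, 15.6 and 19.4 CPM in Tff2-low lines. The genes of this paragraph were picked as the extremes of r among genes tested with an average log2 CPM above 2. Tff2 also set the sides, so these values of r are a description and no test. The 8 points share libraries and depth with Tff2, and the 8 most like transcripts measured 677 to 2480 bases against 5128 to 10724 bases for the 8 most opposite. Without the libraries that stand apart Mfsd3, S100a1, Snx10, Sec24b and Zfp106 of these overlapped between the sides.

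Over all genes tested, edgeR's quasi-likelihood test with Benjamini-Hochberg adjustment called 0 (0%) between the Tff2-high and Tff2-low lines, with 2883 at an unadjusted p under 0.05, DESeq2 called 1533 and limma-voom on libraries 959. Since Tff2 set the groups, these counts are no test of the sides and describe only what moves with it. Genotype and dysplasia were not used in the grouping and could be tested in the same model. For KO against WT lines edgeR called 0 of 13476 genes (0%), 730 had an unadjusted p under 0.05, and DESeq2 called 127. Trp53 itself had a log2 fold change of -3.16 ± 0.68 (SE) in KO against WT lines with an edgeR adjusted p of 0.725. For dysplastic against non-dysplastic lines edgeR called 0 of 13476 (0%), 1065 had an unadjusted p under 0.05, and DESeq2 called 282. Mki67 differed by -0.25 ± 0.20 (SE) between KO and WT lines (edgeR adjusted p of 0.992) and by -0.26 ± 0.20 between dysplastic and non-dysplastic lines (edgeR adjusted p of 0.808). Spink4 differed by 0.75 ± 0.50 between KO and WT lines (edgeR adjusted p of 0.984) and by 0.73 ± 0.51 between dysplastic and non-dysplastic lines (edgeR adjusted p of 0.782). Cbr2 was higher in the KO lines of both sides, by 1.17 ± 0.13 (edgeR adjusted p of 0.721). Among the genes named above or in the tuft list, Dclk1, a kinase of tuft cells, came nearest to the threshold for dysplasia, at 18.0, 62.5, 19.0 and 42.9 CPM in dysplastic lines 752, 794, 565 and 801 against 3.86, 9.76, 2.78 and 4.37 CPM in non-dysplastic lines 300, 650, 1269 and 1270. Its difference was 2.74 ± 0.22 on the log2 scale (edgeR adjusted p of 0.154).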

How the data were processed

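RNA was sequenced in 20 libraries of mouse gastric organoids. The authors deposited raw, unnormalized counts by gene symbol. The submitters' processing notes name bcl2fastq, STAR 2.5 and build mm9. What annotation, counter and strand setting were used is not given in the sources used here. Overlapping, antisense and near-identical genes are therefore uncertain. Per the labels' protocols, libraries came from an mRNA kit. Library titles name the line, and libraries of a line were summed; libraries of a line differed by a chi-square of at least 5.84 per degree of freedom, so none was a duplicate. The table held 24047 genes, 18180 with a count; 13476 passed filterByExpr (13220 without the libraries that stand apart), and 508 of 518 entries of 28 gene lists were in the table. In the smallest library 1 CPM is 5.67 counts, which limits genes near that level.

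Counts were fitted in R 4.3.3 with edgeR 4.0.16 (TMM, robust quasi-likelihood, Benjamini-Hochberg, threshold 0.05), with a mean per genotype and dysplasia class plus the Tff2 group. Alternatives used limma 3.58.1, DESeq2 1.42.0, RLE scaling, no filter, other membership and lines or libraries left out. An SE is the log2 fold change divided by the square root of F. Scores and r used a pseudocount of 1 CPM. The edgeR fit was tried on counts simulated with known changes between the sides. The simulation held neither class differences nor libraries that stand apart, so it says nothing on their effect. The labels leave unsaid whether each line is a separate animal. The p-values thus cover only spread among these 8 lines, part of which may be technical. Transcript lengths came from GENCODE vM21 and promoters from RefSeq (both GRCm38), matched by symbol only, since the counts were made on mm9.

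Members, lists and tests were chosen with earlier results of these data known, and the 6 libraries that stand apart were taken from those results. Named were Tff2, Mki67 and Trp53; up to 12 genes per direction with the largest difference (average log2 CPM above 2, separated with and without those libraries); from each list up to 4 separated members, or up to 2 of the most abundant; up to 8 per direction by r with Tff2; and, for KO and dysplasia, up to 5 called genes per direction, of which there were none. Cell type markers were given besides. The other genes named (Mcm2 to Mcm7, Pcna, Top2a, Cdk1, Cenpa, Ccnd1, Cdkn1b, Myc, Dmbt1, Olfm4, Aqp5, C1galt1c1, B3gnt5, Clca1, Runx1, Prom1, Agr2, Spdef, Lgr5, Nkx6-3, Nkx6-2, Isl1, Xist, Ddx3y) were chosen after their values were seen. Genes that the rule picks but that are withheld are not reported here.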

Additional observations from a re-analysis of the deposited data

Results flagged for a closer look

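In groups of 4 lines, a line was marked where its gap to the nearest of the others was too large a share of the group's range on the log2(CPM + 1) scale by Dixon's critical value for 4 values. Chance marks about 1 in 20 groups, and 14 of 268 groups (5.22%) were marked. Line 794 stood apart among the Tff2-high lines for Wfdc2 at 2424 CPM (others 969.4 to 1116), for the carbonic anhydrase gene Car2 at 753.8 CPM (others 1668 to 1934), for the stress factor Atf4 at 558.0 CPM (others 378.2 to 403.5) and for the score of the unfolded protein and integrated stress responses at 7.619 (others 6.93 to 6.948). Line 650 stood apart for Pola1 at 20.73 CPM (others 30.53 to 32.61). Among the Tff2-low lines, 1270, the ex vivo KO, stood apart for the chief cell gene Gif at 609.4 CPM (others 24.48 to 40.09), for the receptor gene Erbb2 at 204.7 CPM (others 176.0 to 178.2), and for the scores of cell cycle brakes at 4.957 (others 5.288 to 5.347), Wnt targets at 3.91 (others 4.577 to 4.684) and YAP targets at 6.621 (others 7.72 to 7.87). Line 1269 stood apart for Cyp1b1 at 773.7 CPM (others 261.8 to 312.4) and for Atf4 at 278.2 CPM (others 362.8 to 366.8). Line 801 stood apart for the liver and gut factor Hnf4a at 227.0 CPM (others 257.2 to 262.4) and for the fibroblast score at 2.045 (others 1.502 to 1.59).

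In 6 of the 134 genes and lists examined, both KO pairs differed one way and both WT pairs the other, Tff2-high minus Tff2-low on the log2 scale, and in 0 of them did dysplastic and non-dysplastic pairs do so. Of the 16 sign patterns that 4 pairs can have, 2 give such an opposition for each of these divisions. A separated gene has the same sign in all 4 pairs and could not be marked, and many of the genes examined were named for being separated. The counts can therefore not be set beside 2 of 16, and these differences were not tested. For Cdkn1a the KO pairs gave 2.58 and 1.13 and the WT pairs -0.92 and -0.06, a mean difference of 2.344. For the tuft cell gene Avil the KO pairs gave 0.46 and 0.51 and the WT pairs -0.13 and -0.53, a difference of 0.8137. For Rab3d, of the chief cell list, the KO pairs gave -0.10 and -0.05 and the WT pairs 0.97 and 0.19, a difference of -0.6578. The list median of EGF ligands and receptors gave 0.51 and 0.17 in KO pairs and -0.20 and -0.13 in WT pairs, a difference of 0.4997. That of immediate early genes gave 0.21 and 0.28 in KO pairs and -0.31 and -0.11 in WT pairs, a difference of 0.4529. That of regional factors gave -0.19 and -0.21 in KO pairs and 0.07 and 0.13 in WT pairs, a difference of -0.2939.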

How the results depend on the processing

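Over the alternatives run, list medians stayed below 0 for S phase (-0.92 to -0.39), G2 and mitosis (-0.87 to -0.13), cyclins (-0.61 to -0.27) and ribosome assembly (-0.49 to -0.37), and above 0 for pit cell genes (0.27 to 0.62), mucin sugar enzymes (0.15 to 0.30) and mucous secretion (0.17 to 0.52); the neck cell median ran from -0.08 in the dysplastic pairs to 0.41. Counts of calls differed between tools and units: between Tff2-high and Tff2-low lines edgeR called 0, against 1 with no filter, 334 without the class term, 1533 with DESeq2 and 0 to 1 with a line left out. The 959 calls of limma-voom came from single libraries rather than line sums. The correlation within lines was estimated there at 0.0508, so libraries of a line counted nearly as separate samples. Deviations of same-numbered libraries of different lines correlated at -0.377 to 0.612 for number 1, -0.771 to 0.69 for number 2 and 0.585 to 0.769 for number 3, whose 4 libraries are all among those that stand apart; since some pairs at numbers 1 and 2 correlated negatively, the numbers were not taken to pair samples. With the replicate block limma-voom called 1102. For KO, DESeq2 called 127 and edgeR 0 to 3 with a line left out; for dysplasia DESeq2 called 282 and edgeR 0 to 25 (25 without line 801). Separated genes with a log2 fold change of at least 1 in size numbered 166 in all, 76 with only libraries numbered 1, where 2 lines exceeded 500 CPM of Tff2, and 186 to 346 with a line left out (346 without 752, 318 without 794, 300.0 without 565), where fewer lines can overlap.

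Without the libraries that stand apart, medians were 0.23 for parietal, -0.49 for Wnt and 0.15 for regional lists, Hnf4a was at 0.15 and Zfp106 at 0.018. Alternatives chosen after seeing the data were membership recomputed without those libraries, leaving out line 794 as well, and centring by length. With membership recomputed, line 794 joins 801 on the Tff2-low side, the dysplastic KO class carries no contrast and the fold changes come from the other pairs, as they do without line 794; medians were 0.19 for parietal, 0.61 for endocrine, 0.22 for regional, -0.082 for stress response, 0.54 for immune and 1.41 for endothelial and muscle lists; Notch2 was at 0.090, Hnf4a at 0.19, Ptprc at 0.0018, Cdh1 at 0.081 and Zfp106 at 0.026. Without line 794 and those libraries, 266 genes were separated with a log2 fold change of at least 1 in size, those medians were 0.18, 0.58, 0.22, -0.082, 0.54 and 1.42, and those genes were at 0.090, 0.19, 0.0045, 0.082 and 0.027. Centring put Hes1 at -0.17. Without the class term the endothelial and muscle median was 0.16. Dysplastic pairs alone gave 0.39 for intestinal, -0.49 for Wnt, -0.34 for fibroblast and -0.10 for endothelial and muscle lists, and non-dysplastic pairs -0.036 for stress response. With a line left out medians ran from -1.08 to 0.56 for chief, -0.11 to 0.16 for parietal, 0.33 to 0.86 for intestinal, -0.39 to 0.68 for fibroblast, -0.75 to 0.40 for immune, -0.17 to 0.94 for endocrine, -0.12 to 0.23 for tuft, -0.72 to -0.56 for Wnt, -0.60 to 0.086 for squamous, -0.065 to 0.29 for stress response and 0.18 to 1.16 for endothelial and muscle lists. The cause of these changes was not tested.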
